A study of Homo sapiens with 12 samples.

Results

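The CDK inhibitors of the CIP and INK4 families were followed as 7 genes, 3 of the CIP family (CDKN1A, CDKN1B and CDKN1C) and 4 of the INK4 family (CDKN2A, CDKN2B, CDKN2C and CDKN2D). They were found by gene name among the 25914 genes that both deposited tables list, and each name matched 1 gene in each table. The tables come from RNA-seq of 12 libraries in 4 groups of 3. RPE-1 hTERT cells, a telomerase-immortalized line of the retinal pigment epithelium, and HCT116 cells, a colon cancer line, both given as wild-type, were treated with Nutlin-3a at 10 µM or with DMSO for 24 h. Nutlin-3a blocks the binding of MDM2 to p53, so that p53 accumulates.

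The treatment contrast itself stands in the tables only as the authors' own fold changes and p-values, which were not analysed here. The level used below is the base mean, the authors' mean over libraries of the read count of a gene after scaling by library size factors. It was identical for every gene in the table of RPE-1 and in that of HCT116, with a largest difference of 0.0, and so describes neither line nor treatment by itself. Which libraries it averages is not given in the sources used here. Being 1 pooled value per gene, it has no replicate error, and no difference between genes below was tested. The labelled cell types could not be checked against their markers for the same reason, and the depth per library is unknown.

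CDK inhibitors restrain the cyclin-dependent kinases that drive cells through the cycle. CIP proteins bind complexes of cyclins with CDKs, above all those of CDK2, whereas INK4 proteins bind the monomeric kinases CDK4 and CDK6 and keep cyclin D away. Both leave RB1 and its relatives unphosphorylated, which holds back E2F target genes. CDKN1A, which encodes p21, is a classical direct target of p53, and CDKN2A also encodes ARF, an inhibitor of MDM2.

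CDKN2A makes its products from separate first exons, and the stretches before its annotated starts are printed because its single value covers transcripts from both. The start farther upstream belongs to ARF and the one farther downstream to p16. They are printed beside the stretch before the start of CDKN1A, the member with the highest level, 5′ to 3′ on the strand of the gene, without bases that GENCODE 44 places in an exon. Sequences are those of RefSeq on GRCh38.p14, and capitals mark GGGCGG or its reverse complement, the core of the GC box.
CDKN1A, chr6:36678560-36678709, plus strand: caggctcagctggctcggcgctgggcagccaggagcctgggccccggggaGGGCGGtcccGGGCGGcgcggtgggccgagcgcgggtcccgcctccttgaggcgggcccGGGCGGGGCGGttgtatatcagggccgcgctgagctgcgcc
CDKN2A at the ARF start, chr9:21995325-21995481, minus strand: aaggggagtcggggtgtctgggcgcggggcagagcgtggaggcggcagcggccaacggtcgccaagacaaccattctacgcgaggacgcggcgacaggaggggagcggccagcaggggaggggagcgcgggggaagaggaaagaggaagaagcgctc
CDKN2A at the p16 start, chr9:21974867-21975107, minus strand: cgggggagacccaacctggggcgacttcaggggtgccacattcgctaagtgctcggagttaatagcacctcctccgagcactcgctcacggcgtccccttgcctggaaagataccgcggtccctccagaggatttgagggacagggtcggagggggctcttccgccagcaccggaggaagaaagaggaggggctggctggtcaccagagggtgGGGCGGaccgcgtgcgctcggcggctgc
The stretch of CDKN1A held 4 matches, that of the p16 start 1 and that of the ARF start 0. RefSeq windows were matched for 6 of the 7 members, 9 windows in all because CDKN2A has 2 and CDKN2C has 3. In the 250 bases before the start, 7 of these 9 held GGGCGG on either strand, against 42.6% of all 35116 windows of that length. TATAAA, searched on both strands, was in 0 of the 9 and in 10.7% of all windows. Only these exact letters were searched, so variants of the TATA motif were not counted. The E2F-type letters TTTCCCGC or TTTGGCGC, also on both strands, were in 0 of the 9 and in 1.93% of all. GC content lay above the median of 58% for 7 of the 9 windows, between 64.4% at CDKN1B and 77.2% at 1 start of CDKN2C. The other 2 starts of CDKN2C had 45.6% and 48.8%.

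CDKN1A (ENSG00000124762, chromosome 6, 36676460 to 36687337 of GRCh38) had by far the highest level of the family. Its base mean of 64448 was the authors' mean, and 99.9% of the listed genes lay below it, which placed it at rank 15. Levels of different genes were compared per kb of merged exons, because a longer transcript collects more reads. On this scale, CDKN1A had a base mean of 21511 per kb and rank 36 among the 20718 genes with a gene model and a base mean of at least 10, whose median was 96.8 per kb.

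The other CIP genes stood far lower per kb. CDKN1B (ENSG00000111276, chromosome 12, 12685498 to 12722369), which encodes p27, had a base mean of 2150 and a level of 232.3 per kb, above 69.6% of the ranked genes. CDKN1C (ENSG00000129757, chromosome 11, 2883213 to 2885775), which encodes p57 and is an imprinted gene, had a base mean of 253.9 and, at 102.4 per kb, the lowest level of the 7. Per kb, CDKN1A lay 92.6-fold above CDKN1B and 210.1-fold above CDKN1C. Per kb of the longest transcript, these folds were 57.3 and 216.8. The merged exons of CDKN1B total 9.255 kb, against 4.335 kb for its longest transcript. The authors counted reads on a different annotation release from the one that gave these lengths. Merged exons absent from the counting would lower the level per kb of a gene and raise the fold of CDKN1A above it. How far this holds for CDKN1B or any other member was not tested.

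The INK4 genes spanned 128.3 to 353.6 per kb, a narrower range than the CIP genes only because those include CDKN1A. CDKN2B lay 2.76-fold above CDKN2D, whereas CDKN1B lay 2.27-fold above CDKN1C. Per kb of the longest transcript, CDKN2A lay 8.49-fold above CDKN2D and CDKN1B 3.78-fold above CDKN1C. CDKN2B (ENSG00000147883, chromosome 9, 22002903 to 22009305), which encodes p15, had a base mean of 1414 and the highest level of the INK4 genes, 353.6 per kb. CDKN1A lay 60.8-fold above CDKN2B, or 77.4-fold per kb of the longest transcript. CDKN2A (ENSG00000147889, chromosome 9, 21967752 to 21995301) had a base mean of 1210 and 311.6 per kb. The length used merges the exons of 14 annotated transcripts, and neither value separates p16 from ARF. CDKN2C (ENSG00000123080, chromosome 1, 50960745 to 50974634), which encodes p18, had a base mean of 528.5 and 175.1 per kb. CDKN2D (ENSG00000129355, chromosome 19, 10566460 to 10569059), which encodes p19, had a base mean of 193.0 and 128.3 per kb. Between CDKN2B and CDKN2A the ratio per kb was 1.13, and this order depended on the length used. Per kb of the longest transcript, which is shorter than the merged exons, CDKN2A had 1151 and CDKN2B 367.1, and CDKN1B had 496.0, so that CDKN2B moved from rank 2 to rank 4 among the 7 genes.

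**Figure D1:**
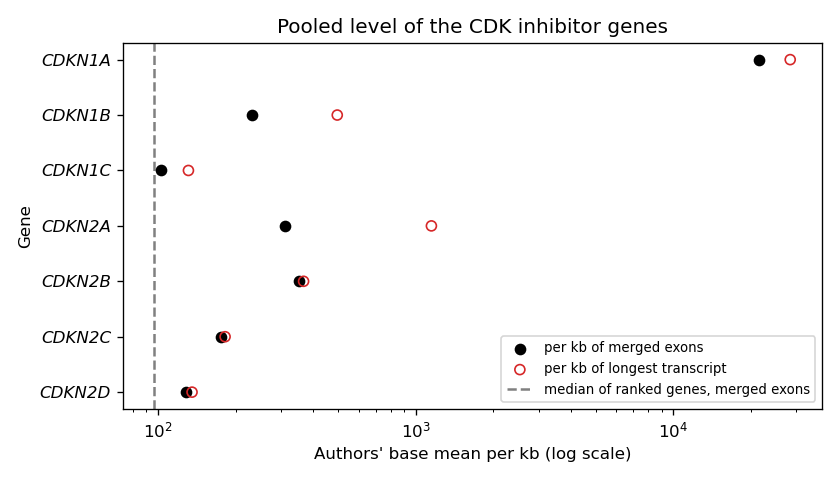
Base mean per kb of the 7 CDK inhibitor genes on a log axis, as the authors' pooled mean divided by the length of merged exons (filled) or of the longest transcript (open), with 1 value per gene and no error bar. CDKN1A stands at 21511 per kb of merged exons, the other 6 genes lie between 102.4 and 353.6, and the dashed line marks the median of the ranked genes, 96.8.

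All 7 members lay above the median of the ranked genes per kb, CDKN1C with 51.3% and CDKN2D with 56.0% of them below. Among protein-coding genes alone, whose median was 139.0 per kb, 5 of the 7 lay above it, and CDKN1C and CDKN2D below.

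The inhibitors were set beside a list of 20 cyclins, CDKs, pocket proteins and PCNA, all of which were listed. This list was not restricted to their partners and targets, and also held CDK5, CDK7 and CCNH. The median of the list was 287.1 per kb, and 17 of the 20 lay above the median of the ranked genes. CDKN1A, CDKN2A and CDKN2B lay above the median of that list, and the other 4 members below it. Per kb of the longest transcript, where the median of the list was 421.8, CDKN1B lay above it and CDKN2B below. The highest value on the list was that of CCND1, cyclin D1, at 11124 per kb, below CDKN1A. CDK4, a kinase that INK4 proteins bind, had 1615 per kb and CDK6, the other such kinase, 340.3 per kb. CDK2, the kinase most linked to the CIP proteins, had 502.2 per kb, and PCNA, the replication clamp that p21 also binds, 2459 per kb. The level of RB1 was 254.3 per kb. At the low end stood CCNA1, a cyclin known mainly from the germ line, with 7.49 per kb.

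**Figure D2:**
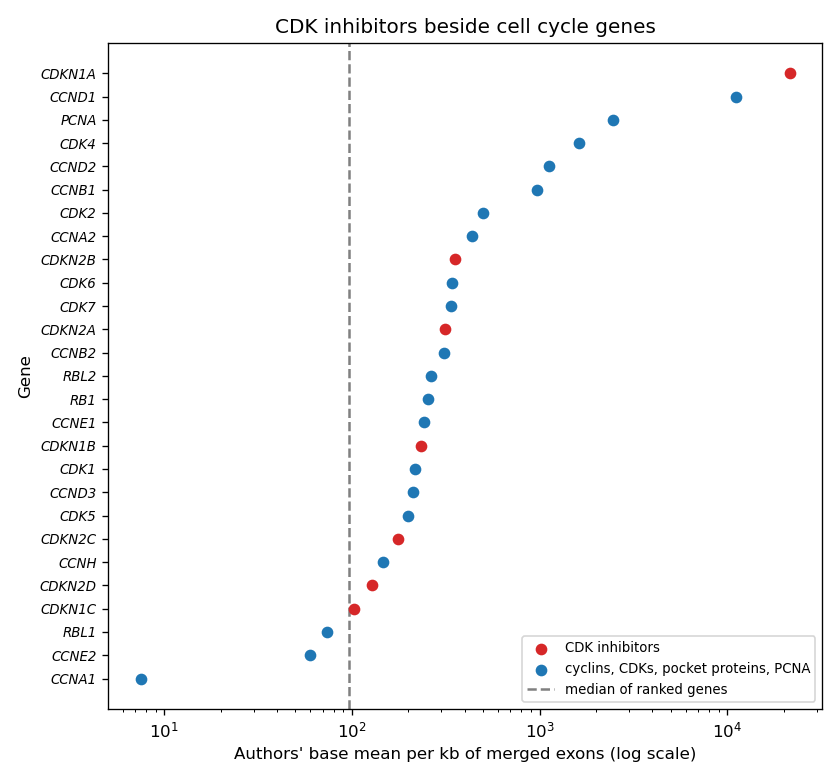
Base mean per kb of merged exons on a log axis for the 7 CDK inhibitors (red) and the 20 cyclins, CDKs, pocket proteins and PCNA (blue), ordered by level, with 1 pooled value per gene and no error bar. CDKN1A is the highest at 21511 and CCNA1 the lowest at 7.49, and the dashed line marks the median of the ranked genes, 96.8.

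Several members share their locus with other listed genes. Distances are given between the outermost starts in GENCODE 44, and for CDKN1A that start lies upstream of the RefSeq start whose preceding stretch is printed above. DINOL, a noncoding RNA, lies on the opposite strand with exons overlapping those of CDKN1A, and had a base mean of 22.3. PANDAR, another noncoding RNA read from the opposite strand, starts 1334 bp from the outermost start of CDKN1A and had a base mean of 3.38. At the INK4 locus on chromosome 9, CDKN2B-AS1 runs opposite to CDKN2A and CDKN2B, starts 1162 bp from CDKN2A and shares exonic bases with CDKN2A but not with CDKN2B. It had a base mean of 95.2, which was 4.66 per kb, against 311.6 for CDKN2A. Its 28 annotated transcripts merge to 20.4 kb, whereas the longest alone is 7.17 kb. Within the span of CDKN2B-AS1 and on the same strand, AL449423.1, a noncoding RNA that starts 181 bp from CDKN2A, had a base mean of 3.77. GPR19, an orphan receptor gene, overlaps the GENCODE 44 span of CDKN1B on the opposite strand without shared exons and had a base mean of 33.1. This overlap depends on the outermost start of CDKN1B at 12685498. The RefSeq window of CDKN1B, 12717118 to 12717417, lies beyond the end of GPR19 at 12696207. The pseudogene LAP3P2, 2643 bp from the outermost start of CDKN1A, overlaps PANDAR on the opposite strand and had a base mean of 183.6. FAF1 starts 478 bp from CDKN2C on the opposite strand and had 1594, and KRI1, 3028 bp from CDKN2D on the same strand, had 1342. How far reads of members, of LAP3P2 and of their opposite-strand partners were kept apart in counting was not tested.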

How the data were processed

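RNA-seq of RPE-1 and HCT116 cells was deposited as 2 tables, 1 per cell line. According to the submitters' processing notes and the study's methods, the authors clipped reads using Trimmomatic 0.39 and cutadapt, aligned them to hg38 by segemehl, retained unique alignments with SAMtools 1.12, and ran featureCounts at exon level with strand. The authors then compared treatments with DESeq2. Versions of cutadapt, featureCounts and DESeq2, as the authors give them, differ between the sources, as does the library protocol, which is rRNA depletion in the labels and poly(A) selection in the methods. The signal used here was deposited by the authors as a base mean, the average of counts divided by size factors. All other numeric columns hold the authors' own comparison of Nutlin-3a with DMSO (log2 fold change, standard error, statistic, p-value and adjusted p-value) and were not used. No model was fitted.

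Levels were divided by merged exon length of GENCODE 44, in which 25836 listed genes were found by identifier. Both it and the files use GRCh38, though the authors used Ensembl 102. Genes with base means of at least 10 were ranked. Neighbours overlapped a member or started within 10000 bp. The text names the 7 members, all neighbours, and genes from the list of 20. Members and lists were chosen with earlier results of these data known. Alternatives were the longest transcript, protein-coding genes only, and no filter. Length merging was tested on simulated intervals, and the share of values below a gene on a fixed series of numbers with a known answer. Python 3.11.15, numpy 2.4.6, pandas 2.3.3 and matplotlib 3.10.9 were used.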

Additional observations from a re-analysis of the deposited data

How the results depend on the processing

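All 7 members lay above the median level per kb with merged exons, with the longest transcript and with no filter on low values, and 5 of the 7 did among protein-coding genes. With the longest transcript, CDKN1C and CDKN2D lay near the median, with 50.3% and 51.0% of the ranked genes below. Dropping the filter only added genes with a base mean under 10 to the ranking. The longest transcript cannot be longer than the merged exons, so its use could not lower the level per kb of any gene. Values rose for each member, most for CDKN2A, from 311.6 to 1151, and CDKN1B, from 232.3 to 496.0, and CDKN1A remained at rank 1. The share of ranked genes below rose for CDKN1A, CDKN1B and CDKN2A, for CDKN2A from 76.1% to 91.6%. That share fell for the other members, for CDKN2B from 78.7% to 73.1%. This change of length also put CDKN1B in place of CDKN2B among the members above the median of the list of 20. Base means carry no replicate error, and their precision is unknown. No paired analysis was possible because the values used are pooled over libraries. The planned count tests, normalizations, filter on low counts and omission of single libraries were not run for the same reason.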
